A study of Mus musculus with 8 samples.

Results

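Oct4, encoded by Pou5f1, and 9 genes that work beside Sox2 in the naive pluripotency network were followed through deletions of enhancers in mouse embryonic stem cells. The 10 genes were taken by name. They were Pou5f1, Sall4, Zfp42, Esrrb, Nr0b1, Nr5a2, Tfcp2l1, Prdm14, Tbx3 and Tcl1. All 10 were found by symbol among the 17731 gene identifiers used, and all 10 had a mean of at least 1 FPKM (a fragment count scaled to transcript length and to the size of the library) and so were among the 11271 genes tested. Tcl1 is not a transcription factor, and the other 9 are.

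The study asked how different contacts between the Sox2 promoter and enhancers bear on the work of Sox2 in these cells. Total RNA was sequenced from 8 samples of the E14TG2a line (strain 129/Ola) in 4 groups of 2 biological duplicates each: unedited cells (WT) and cells in which CRISPR/Cas9 had been used to knock out an enhancer, named E1-KO, E2-KO and E3-KO. Every group, WT included, grew without feeder cells on gelatin in serum medium with LIF, the GSK3 inhibitor CHIR99021 and the MEK inhibitor PD0325901. The labels do not say where the 3 enhancers lie, whether both alleles were removed or how many clones each knockout stands for. No edited line with its enhancers intact was analysed here, so an effect of the deleted enhancer and one of clone picking or editing cannot be told apart, and the p-values measure only the spread between duplicates.

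Naive pluripotency is the ground state of the early epiblast, which LIF and inhibitors of MEK and GSK3 hold in culture. Oct4 and Sox2 bind DNA side by side and form the core of the network. Around the core, Esrrb, Tfcp2l1, Klf factors, Tbx3, Nr5a2, Prdm14 and Nr0b1 keep the cells naive, and several of them act as the end points of LIF or WNT signals. Their RNAs are known to fade as cells leave the naive state, while Pou5f1, Sox2 and Sall4 stay on for longer.

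Marker genes of pluripotent stem cells were expressed in every group, and Sox2, Pou5f1 and Zfp42 are themselves among these markers. All 9 had a mean above 1 FPKM in every group, with summed levels of 2360.4 to 2403.4 FPKM in WT and 2070.8 to 2618.2 FPKM in the knockouts. The sums cover opposite moves. In E1-KO the means of Sox2 and Dppa5a were 44.3% and 61.4% of WT, and those of the rest were above WT, up to 321% for Dppa4. The depth of each library was not given, and low values placed the depths between 0.785 and 1.01 times that of WT replicate 1. No library stood apart in depth, while E2-KO replicate 1 had the highest summed FPKM (532007, against 454974 to 488330 in the other 7) and the higher value of Pou5f1, Sall4, Zfp42, Esrrb, Nr0b1 and Nr5a2 within its pair. Sox2 itself was at 130.5 and 136.3 FPKM in WT, at 58.03 and 60.27 FPKM in E1-KO, at 113.6 and 97.51 FPKM in E2-KO, with 97.74 and 90.96 FPKM in E3-KO. Sox2 was below both WT samples in all 6 knockout samples, with the lowest values in E1-KO. These values are of the gene the study is about, and the labels do not say that it was a direct target.

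The promoters of 4 members are shown. Pou5f1 and Zfp42 fell in no knockout, and Tcl1 and Tfcp2l1 had the largest mean absolute log2 fold changes of the members. Sall4 also fell in no knockout, but no RefSeq promoter was found for it. Each promoter is the 250 bases before the annotated start in RefSeq on build GRCm38.p6, read 5′ to 3′ on the gene's strand, with motif matches in capitals. Pou5f1 lies at chr17:35505782-35506031 on the plus strand (the upstream of its 2 RefSeq starts), Zfp42 at chr8:43307010-43307259 on the minus strand, Tcl1 at chr12:105222738-105222987 on the minus strand and Tfcp2l1 at chr1:118627695-118627944 on the plus strand.
Pou5f1: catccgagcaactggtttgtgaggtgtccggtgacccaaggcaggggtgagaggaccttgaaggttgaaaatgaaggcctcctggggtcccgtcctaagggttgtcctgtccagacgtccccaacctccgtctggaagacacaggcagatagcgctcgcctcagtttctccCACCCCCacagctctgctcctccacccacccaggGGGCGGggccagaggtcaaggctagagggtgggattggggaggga
Zfp42: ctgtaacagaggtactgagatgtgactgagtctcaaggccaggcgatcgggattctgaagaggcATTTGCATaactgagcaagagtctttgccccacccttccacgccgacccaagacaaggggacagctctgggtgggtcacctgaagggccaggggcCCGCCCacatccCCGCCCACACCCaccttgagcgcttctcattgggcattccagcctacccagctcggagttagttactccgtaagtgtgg
Tcl1: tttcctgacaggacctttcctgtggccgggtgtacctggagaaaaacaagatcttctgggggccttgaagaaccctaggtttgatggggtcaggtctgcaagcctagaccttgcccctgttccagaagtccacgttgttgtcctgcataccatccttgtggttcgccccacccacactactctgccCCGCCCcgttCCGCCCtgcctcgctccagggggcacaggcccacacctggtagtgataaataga
Tfcp2l1: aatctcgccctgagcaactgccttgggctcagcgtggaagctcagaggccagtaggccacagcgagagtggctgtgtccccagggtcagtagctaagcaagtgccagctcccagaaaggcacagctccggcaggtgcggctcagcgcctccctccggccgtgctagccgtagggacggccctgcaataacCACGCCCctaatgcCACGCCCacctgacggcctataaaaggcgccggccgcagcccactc
The motifs searched on both strands were the octamer ATGCAAAT that Oct4 binds, the Sox core CATTGT, the Klf box GGGNGTG, the GC box GGGCGG and the Esrrb half-site AAGGTCA. Zfp42 alone of the 7 members with a sequence held an octamer, on the minus strand 186 to 179 bases before the start, and 1.6% of all 32851 promoters of this length hold one. Zfp42 also held 2 GC boxes and a Klf box that shares a base with the nearer of them. Pou5f1 held a Klf box 79 to 73 bases before its start and a GC box 45 to 40 bases before it. Its other RefSeq start, at chr17:35508557-35508806, held the Sox core, which 10.7% of promoters hold. Tfcp2l1 held 2 Klf boxes within the last 60 bases, and Tcl1 held 2 GC boxes within the last 64 bases. Klf boxes were also found before the first Esrrb start, the Nr0b1 start and the downstream Nr5a2 start. A Klf box was in 26.1% and a GC box in 32.7% of all promoters, and the Esrrb half-site, which 4.08% hold, was in none of these. The matches are letters in a window, and no binding was measured here.

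The 10 members did not move as a block. In E1-KO, 7 of the 10 fell and 0 rose at a Benjamini-Hochberg adjusted p under 0.05 (limma-trend over all tested genes, 2-sided), where 23.0% of all tested genes fell and 15.0% rose. In E2-KO, 4 fell and 3 rose, against 22.0% and 14.2% of all tested genes. In E3-KO, 6 fell and 1 rose, against 30.8% and 13.9%. In E1-KO, 3 members lay above both WT samples in each duplicate and 7 below, where 33.0% and 44.0% of all tested genes did. In E2-KO, 3 lay above and 6 below, against 29.6% and 42.3%, and in E3-KO, 3 lay above and 6 below, against 25.7% and 48.5%. The median log2 fold change of the members was -0.52, -0.27 and -0.57 for E1-KO, E2-KO and E3-KO, beside -0.062, -0.076 and -0.151 for all tested genes. Fold changes are on the log2(FPKM + 1) scale, and all 3 comparisons share the 2 WT samples. Rescaling each library by the median ratio of its genes moved the split of all calls, with the higher share going from 39.6% to 48.7% for E1-KO, from 39.2% to 50.4% for E2-KO and from 31.1% to 49.9% for E3-KO. Under it the members counted 6 lower and 0 higher in E1-KO, 4 and 3 in E2-KO, then 6 and 2 in E3-KO. Quantile normalization ended all 3 rising calls of E2-KO, where 6 members were then lower and 0 higher, and scaling to the total of all but the 50 highest genes gave 6 lower and 3 higher there. The E2-KO count dropped from 7 to 3 without E2-KO replicate 1, to 3 without WT replicate 2 and to 4 without WT replicate 1.

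**Figure D1:**
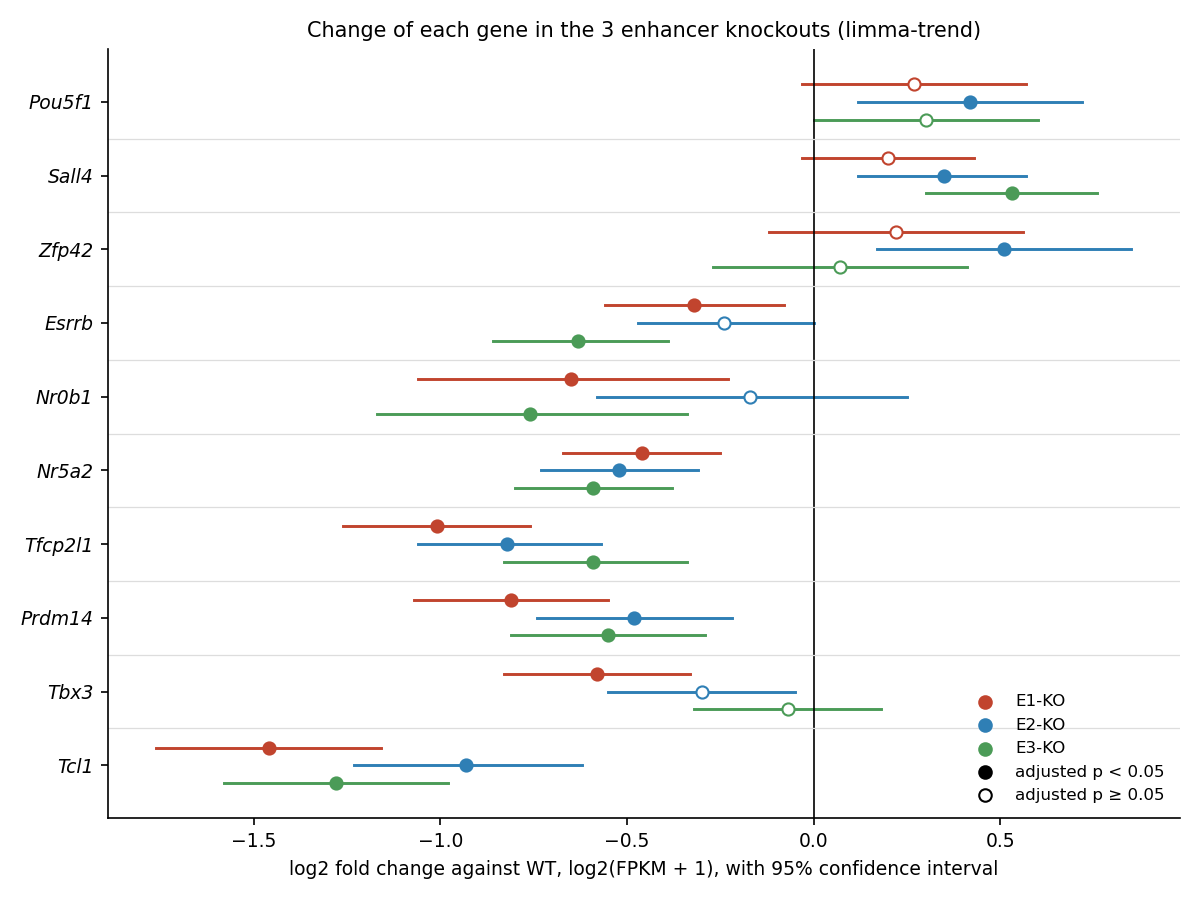
The log2 fold change of each member on the log2(FPKM + 1) scale in E1-KO, E2-KO and E3-KO against WT, with its 95% interval from limma-trend and filled points for an adjusted p under 0.05. Tcl1 lies furthest below 0 in all 3 knockouts, while Pou5f1, Sall4 and Zfp42 lie above 0 in all 3.

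Oct4 is the POU-domain partner of Sox2 on DNA, and Pou5f1 was the most abundant member in every group. Pou5f1 was at 360.0 and 381.6 FPKM in WT, 428.2 and 467.0 in E1-KO, 553.1 and 445.4 in E2-KO, with 481.6 and 432.6 in E3-KO. All 6 knockout samples lay above both WT samples, and the 3 knockouts overlapped one another. The mean level was 121%, 135% and 123% of WT in E1-KO, E2-KO and E3-KO. Pou5f1 passed the test only in E2-KO, with a log2 fold change of 0.42 (SE 0.133, adjusted p = 0.0355 by limma-trend). In E1-KO the log2 fold change was 0.27 (SE 0.133, adjusted p = 0.138) and in E3-KO 0.30 (SE 0.133, adjusted p = 0.095). The E2-KO call was lost without E2-KO replicate 1 (log2 fold change 0.26) and without either WT replicate (adjusted p = 0.119 to 0.178 over the 3), and under quantile normalization it came to 0.06 (adjusted p = 0.648). With all genes above 0 and with the samples of the pair alone the adjusted p was 0.0719 and 0.0555. In E3-KO it was called higher under median-ratio scaling, at 0.47 (adjusted p = 0.0141). Its log2 fold change was above 0 in every knockout under every scaling tried, but by little in some. Under quantile normalization it was 0.05 in E1-KO (SE 0.0938, adjusted p = 0.712), and the lowest value over the alternatives in E3-KO was 0.10.

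Sall4 encodes a zinc finger protein that binds with Oct4 and recruits the NuRD corepressor. Sall4 was at 103.4 and 111.6 FPKM in WT, 125.5 and 122.2 in E1-KO, 140.6 and 133.0 in E2-KO, with 146.3 and 166.2 in E3-KO. The groups did not overlap and stood in the order WT, E1-KO, E2-KO, E3-KO. Sall4 rose in E3-KO (log2 fold change 0.53, SE 0.101, adjusted p = 0.00313) and in E2-KO (0.35, SE 0.101, adjusted p = 0.0272). The E1-KO value was 0.20 (SE 0.101, adjusted p = 0.144). The E3-KO call was kept in all 14 alternatives, and the E2-KO call was lost without E2-KO replicate 1 or either WT replicate (adjusted p = 0.0847 to 0.172) and under quantile normalization (0.23, adjusted p = 0.0855).

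Zfp42, or Rex1, is a zinc finger gene that has long served as a reporter of the naive state. Zfp42 was at 189.4 and 192.2 FPKM in WT, 214.9 and 231.2 in E1-KO, 323.1 and 229.9 in E2-KO, with 208.1 and 192.4 in E3-KO. Every knockout sample lay above both WT samples, though E3-KO replicate 2 was barely above them and E2-KO replicate 1 stood far above its duplicate. Zfp42 rose in E2-KO (log2 fold change 0.51, SE 0.15, adjusted p = 0.027), a call that was lost without E2-KO replicate 1 (log2 fold change 0.27, adjusted p = 0.102) and without either WT replicate (adjusted p = 0.114 and 0.118). The same call was lost under quantile normalization (0.30, adjusted p = 0.0776), with all genes above 0 (adjusted p = 0.0618) and with the samples of the pair alone (adjusted p = 0.0527). The E1-KO value was 0.22 (adjusted p = 0.269). The E3-KO value was 0.07, with a 95% interval from -0.27 to 0.41.

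**Figure D2:**
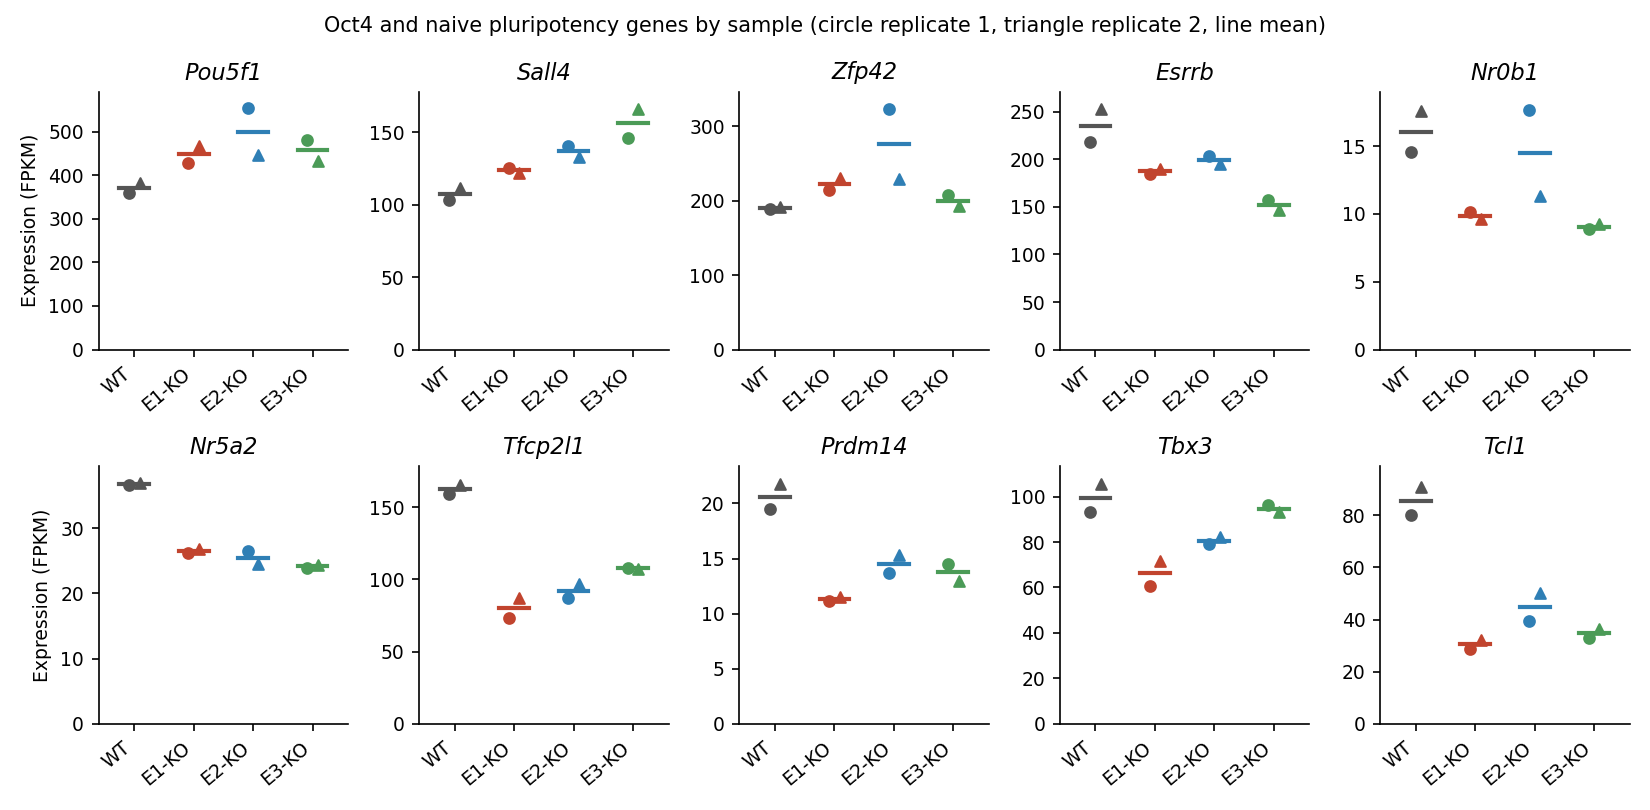
FPKM of the 10 members in each of the 8 samples, by group, with a circle for replicate 1, a triangle for replicate 2 and a line at the group mean, each panel on its own linear axis from 0. All knockout points of Tfcp2l1, Tcl1, Prdm14 and Nr5a2 lie below both WT points, and those of Pou5f1, Sall4 and Zfp42 lie above them.

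Nr5a2, Tfcp2l1, Prdm14 and Tcl1 fell in all 3 knockouts. Of all tested genes, 23.0%, 22.0% and 30.8% fell in E1-KO, E2-KO and E3-KO, and the share that fell in all 3 was not counted. The 3 comparisons share the same WT samples. Tcl1 encodes a cofactor that binds and activates AKT kinases and is expressed in embryonic stem cells and lymphoid cells. Tcl1 was at 80.2 and 91.02 FPKM in WT, 28.87 and 32.04 in E1-KO, 39.29 and 50.21 in E2-KO, with 32.92 and 36.44 in E3-KO. All 6 knockout samples were well under both WT samples, and the group means were 35.6%, 52.3% and 40.5% of WT. The log2 fold change was -1.46 for E1-KO (SE 0.134, adjusted p = 0.000184), -0.93 for E2-KO (SE 0.134, adjusted p = 0.00127) and -1.28 for E3-KO (SE 0.134, adjusted p = 0.000191). Tcl1 had the largest mean absolute log2 fold change of the members (1.22), ahead of Tfcp2l1 (0.805).

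Tfcp2l1 encodes a CP2-family factor that is a main target of STAT3 in the response to LIF. Tfcp2l1 was at 159.3 and 165.2 FPKM in WT, 73.43 and 87.19 in E1-KO, 86.98 and 96.62 in E2-KO, with 107.9 and 107.5 in E3-KO. No knockout sample reached WT, and E1-KO held the lowest value. The log2 fold change was -1.01 for E1-KO (SE 0.109, adjusted p = 0.000331), -0.82 for E2-KO (SE 0.109, adjusted p = 0.000923) and -0.59 for E3-KO (SE 0.109, adjusted p = 0.00281).

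Prdm14, a PR-domain factor that represses FGF receptor and DNA methyltransferase genes, was among the least abundant members. Prdm14 was at 19.48 and 21.73 FPKM in WT, 11.15 and 11.52 in E1-KO, 13.67 and 15.35 in E2-KO, with 14.54 and 12.99 in E3-KO. All 6 knockout samples were below WT and E1-KO was below the other knockouts. The log2 fold change was -0.81 for E1-KO (SE 0.116, adjusted p = 0.00112), -0.48 for E2-KO (SE 0.116, adjusted p = 0.0123) and -0.55 for E3-KO (SE 0.116, adjusted p = 0.0051). The E2-KO call was lost without E2-KO replicate 1 (adjusted p = 0.0635) or WT replicate 2 (adjusted p = 0.105), and the E3-KO call without WT replicate 2 (adjusted p = 0.0541).

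Nr5a2 encodes an orphan nuclear receptor that can sustain Pou5f1 expression. Nr5a2 was at 36.69 and 36.99 FPKM in WT, 26.19 and 26.77 in E1-KO, 26.47 and 24.48 in E2-KO, with 23.96 and 24.33 in E3-KO. The 6 knockout samples lay close together and well under WT. The log2 fold change was -0.46 for E1-KO (SE 0.0926, adjusted p = 0.0052), -0.52 for E2-KO (SE 0.0926, adjusted p = 0.00346) and -0.59 for E3-KO (SE 0.0926, adjusted p = 0.0013). The calls of Tcl1, Tfcp2l1 and Nr5a2 in all 3 knockouts were kept in all 14 alternatives.

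The remaining members, Esrrb, Nr0b1 and Tbx3, fell in some knockouts. Esrrb encodes an orphan nuclear receptor that is a direct target of GSK3 inhibition through Tcf7l1. Esrrb was at 217.8 and 252.5 FPKM in WT, 185.0 and 189.8 in E1-KO, 203.0 and 195.1 in E2-KO, with 156.9 and 146.5 in E3-KO. All knockout samples lay below WT, with E3-KO the lowest. Esrrb fell in E3-KO (log2 fold change -0.63, SE 0.105, adjusted p = 0.00179), a call kept in all 14 alternatives. It also fell in E1-KO (-0.32, SE 0.105, adjusted p = 0.0392), but that call was lost when any 1 library of the pair was left out (adjusted p = 0.0546 to 0.285) and in 4 other alternatives. The E2-KO value was -0.24 (SE 0.105, adjusted p = 0.11).

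Nr0b1, or Dax1, encodes a nuclear receptor without the usual DNA-binding domain, which binds Oct4 and Nr5a2. Nr0b1 was at 14.57 and 17.57 FPKM in WT, 10.11 and 9.603 in E1-KO, 17.65 and 11.29 in E2-KO, with 8.917 and 9.231 in E3-KO. E1-KO and E3-KO lay below WT, and E2-KO overlapped WT, with replicate 1 above both WT samples. Nr0b1 fell in E3-KO (log2 fold change -0.76, SE 0.185, adjusted p = 0.00997) and in E1-KO (-0.65, SE 0.185, adjusted p = 0.0231). The E3-KO call was lost without WT replicate 2 (log2 fold change -0.63). The E1-KO call was lost without WT replicate 2 or either E1-KO replicate (log2 fold change -0.68 to -0.52). With all genes above 0 the E1-KO call was lost too (limma-trend, adjusted p = 0.0583). The E2-KO value was -0.17, with a 95% interval from -0.58 to 0.25.

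Tbx3 encodes a T-box factor that responds to PI3K and LIF signals. Tbx3 was at 93.35 and 105.7 FPKM in WT, 60.7 and 71.68 in E1-KO, 79.2 and 82.03 in E2-KO, with 96.42 and 93.04 in E3-KO. E1-KO was far below WT, E2-KO lay between, and E3-KO overlapped WT, with replicate 2 just under both WT samples. Tbx3 fell in E1-KO (log2 fold change -0.58, SE 0.111, adjusted p = 0.00398), in all 14 alternatives. The E2-KO value was -0.30 (SE 0.111, adjusted p = 0.063), and it passed under quantile normalization (-0.37, adjusted p = 0.0301) and with scaling to the total of all but the 50 highest genes (-0.35, adjusted p = 0.034). The E3-KO value was -0.07, with a 95% interval from -0.32 to 0.18.

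Comparing the knockouts directly asked whether any member responded to one deletion differently from another. Between E2-KO and E1-KO, 0 of the 10 members passed by limma-trend, where 0.834% of all tested genes did. At an unadjusted p under 0.05, 4 of the 10 and 18.6% of all tested genes differed, and no other tool was run. Tcl1, 0.53 higher on the log2 scale in E2-KO (95% interval 0.23 to 0.84, adjusted p = 0.0977), was nearest to the threshold. Between E3-KO and E1-KO, 3 members passed, where 25.8% of all tested genes did, and all 3 were higher in E3-KO. These were Tbx3 at 0.52 (SE 0.111, adjusted p = 0.0096), Tfcp2l1 at 0.42 (SE 0.109, adjusted p = 0.021) and Sall4 at 0.33 (SE 0.101, adjusted p = 0.0412). Without E1-KO replicate 1 each of the 3 lost its call (adjusted p = 0.0996 for Tbx3, 0.181 for Tfcp2l1 and 0.155 for Sall4). Tfcp2l1 also lost its call without either E3-KO replicate (adjusted p = 0.0539 and 0.0622). Sall4 lost its call without E1-KO replicate 2 (0.188) or E3-KO replicate 2 (0.138), and with the replicate block, without a trend or with the pair alone (0.0577 to 0.0656). Between E3-KO and E2-KO, Esrrb alone passed, lower in E3-KO with a log2 fold change of -0.39 (SE 0.105, adjusted p = 0.038), where 15.6% of all tested genes passed. That call was lost in 11 of 14 alternatives. Sox2, for comparison, was higher in E2-KO and E3-KO than in E1-KO, by 0.82 (adjusted p = 0.016) and 0.66 (adjusted p = 0.00223).

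The order of the levels changed with the knockouts. FPKM is per length of transcript, so levels can be set between genes. In WT the order ran Pou5f1, Esrrb, Zfp42, Tfcp2l1, Sall4, Tbx3, Tcl1, Nr5a2, Prdm14, Nr0b1, and Sall4 and Tbx3 were the only neighbours whose samples overlapped. In all 3 knockouts, Zfp42 had passed Esrrb and Sall4 had passed Tfcp2l1. In E3-KO, Sall4 (mean 156.3 FPKM) and Esrrb (mean 151.7 FPKM) overlapped. In E2-KO, Prdm14 and Nr0b1 overlapped at the bottom of the order.

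The ratio of Oct4 to Sox2 RNA within a library was higher in every knockout sample than in WT. The ratio of Pou5f1 to Sox2 was 2.76 and 2.80 in WT, 7.38 and 7.75 in E1-KO, 4.87 and 4.57 in E2-KO, with 4.93 and 4.76 in E3-KO. The WT, E1-KO and remaining samples formed separate ranges, with E2-KO and E3-KO overlapping. With 2 samples a group an exact permutation test cannot go below p = 0.333, and the ratio was not tested by any other means. A ratio within a library shows unequal change of its parts and not which part moved. Tested singly against WT, Sox2 was called lower in E1-KO, E2-KO and E3-KO (log2 fold change -1.16, -0.34 and -0.50). Pou5f1 was called higher only in E2-KO (0.27, 0.42 and 0.30 in the same order). Both E2-KO calls were lost in some alternatives. Pou5f1 made up 28.3% and 27.7% of the summed FPKM of the 10 members in WT and 34.7% to 37.7% in the 6 knockout samples.

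**Figure D3:**
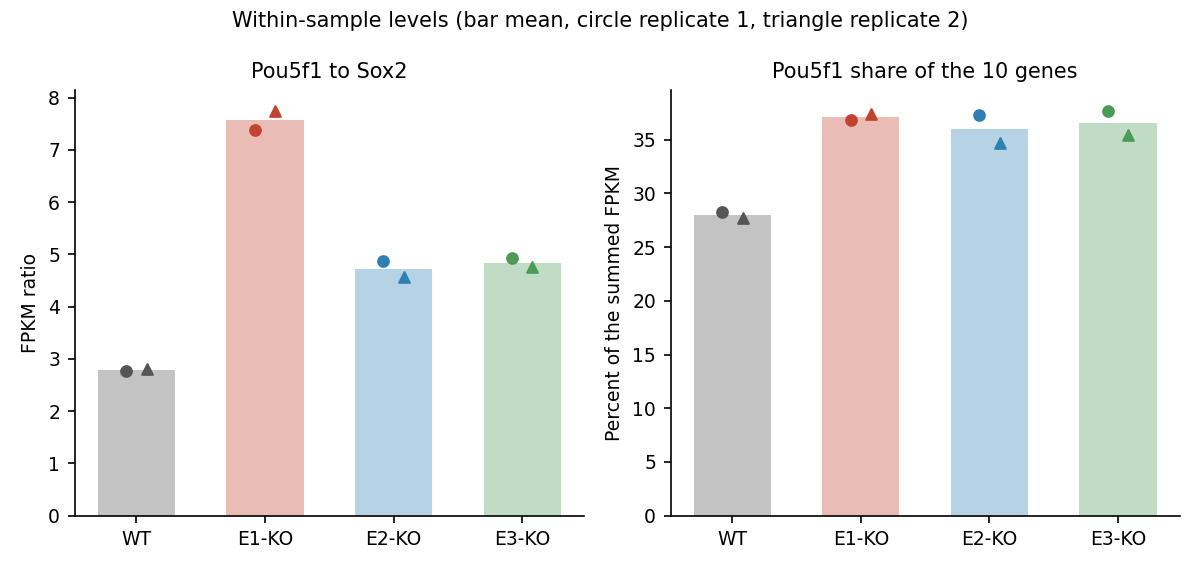
The ratio of Pou5f1 to Sox2 FPKM (left) and Pou5f1 as a percent of the summed FPKM of the 10 members (right) in each sample, by group, with a circle for replicate 1, a triangle for replicate 2 and a bar at the mean. The ratio is lowest in WT at 2.76 and 2.80 and highest in E1-KO at 7.38 and 7.75, while the share is 34.7% to 37.7% in the 6 knockout samples.

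Patterns were set side by side by the distance between the 3 log2 fold changes against WT, over 4 groups that share the same WT samples. Among the members, Pou5f1 was nearest to Zfp42 (distance 0.253) and Sall4 to Pou5f1 (0.255). Esrrb and Nr5a2 were nearest to each other (0.316). Tcl1 stood farthest from any other member, at 0.833 from Tfcp2l1. Among all tested genes, Pou5f1 was nearest to Med30 (0.0321), Eif4a3 (0.0404) and Ints12 (0.0406). Tcl1 was nearest to Ifitm1 (0.114), ENSMUSG00000074660 (0.128) and Comtd1 (0.133).

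The other core and naive genes changed in both directions. Of 22 tested, 6 rose and 7 fell in each of E1-KO and E2-KO, whereas 4 rose and 7 fell in E3-KO, where 15.0%, 14.2% and 13.9% of all tested genes rose and 23.0%, 22.0% and 30.8% fell, with median log2 fold changes of 0.01, 0.02 and -0.08. Dppa3, a maternal factor that guards DNA methylation, was at 15.0 and 18.03 FPKM in WT and fell in all 3 knockouts (-2.45, -2.68 and -0.96, adjusted p = 0.000119, 8.92e-05 and 0.00525). Klf4, a Kruppel-like factor downstream of LIF, fell in all 3 as well (-0.97, -1.17 and -1.08). L1td1, an RNA-binding protein gene of pluripotent cells, rose in all 3 (1.61, 1.45 and 1.30). Dppa2, which primes developmental promoters, also rose in all 3 (1.4, 1.33 and 1.66). Of 6 listed genes with a known composite Oct4 and Sox2 element, 1 rose and 2 fell in each of E1-KO and E2-KO. In E3-KO, 1 rose and 1 fell, beside the same shares of all tested genes. The listed genes not called numbered 3, 3 and 4 in E1-KO, E2-KO and E3-KO. Utf1 rose in all 3 knockouts (1.23, 1.09 and 0.66) and Sox2 fell in all 3. Fgf4 fell in E1-KO (-0.51, adjusted p = 0.00962) and Lefty1 in E2-KO (-1.27, adjusted p = 0.0148). Lefty1 had several rows in the files, of which 1 was used. Of the calls given here, those lost when 1 library was left out were Fgf4 without E1-KO replicate 2 or WT replicate 2 (adjusted p = 0.067 to 0.0823), Lefty1 without E2-KO replicate 1 or WT replicate 1 (0.0937 to 0.108), Utf1 in E3-KO without E3-KO replicate 2 or either WT replicate (0.0868 to 0.159), and Sox2 in E2-KO without E2-KO replicate 2 or either WT replicate (0.105 to 0.171). The Sox2 call in E2-KO was also lost under median-ratio scaling, without a trend and with the pair alone (0.0519 to 0.0642), and that of Utf1 in E3-KO with all genes above 0 (0.0747).

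Relatives of the members changed in both directions. Of 5 listed POU genes 3 were tested, and in E3-KO Pou2f3 fell (-0.87, adjusted p = 0.00106) and Pou6f1 rose (0.61, adjusted p = 0.0106), while 0 of the 3 passed in E1-KO and E2-KO. Of 7 tested orphan nuclear receptors, 2 rose and 1 fell in each of E1-KO and E2-KO, and 1 rose and 3 fell in E3-KO. For both lists, the shares of all tested genes were 15.0%, 14.2% and 13.9% that rose and 23.0%, 22.0% and 30.8% that fell. Nr6a1, which represses Pou5f1 during differentiation, rose in all 3 knockouts (0.70, 0.43 and 0.64). Nr2f6 went both ways, higher in E1-KO (0.69) and E2-KO (0.78) but lower in E3-KO (-0.53, adjusted p = 0.0246). Its E1-KO call was lost without E1-KO replicate 1 or WT replicate 1 (adjusted p = 0.0615 to 0.0711), and its E3-KO call without E3-KO replicate 2 or either WT replicate (0.0741 to 0.133) and under median-ratio scaling, quantile normalization and all genes above 0 (0.0527 to 0.149). Nr2c2 fell in all 3 (-0.48, -0.43 and -0.95), and Esrra, the relative of Esrrb, fell in E3-KO (-0.71, adjusted p = 0.0023). Among 13 other relatives, 2 rose and 4 fell in E1-KO, and 1 rose and 4 fell in each of E2-KO and E3-KO, again beside 15.0%, 14.2% and 13.9% of all tested genes that rose and 23.0%, 22.0% and 30.8% that fell. Sall3, a relative of Sall4, rose from 1.288 and 1.441 FPKM in WT to 3.235 and 2.338 in E1-KO, 4.238 and 4.036 in E2-KO, with 4.01 and 3.941 in E3-KO. Prdm1, a relative of Prdm14, fell in the 3 knockouts (-1.20, -1.61 and -1.27), and Grhl2, a relative of Tfcp2l1, did so too (-1.41, -1.03 and -1.03). The mean of Grhl2 was 3.437 FPKM in WT and 0.6733, 1.172 and 1.181 FPKM in E1-KO, E2-KO and E3-KO. At such low levels the 1 FPKM added before the log shrinks the fold changes. Prdm1 also had several rows. Leaving out either WT replicate ended the Pou6f1 call (adjusted p = 0.0501 to 0.0645). Leaving out either WT replicate, or E2-KO replicate 2, ended that of Nr6a1 in E2-KO (0.0738 to 0.0994). For Nr2c2, either WT replicate or replicate 1 of the knockout decided the E1-KO call and the E2-KO call. The E2-KO call of Nr2c2 was also lost under median-ratio scaling and quantile normalization (limma-trend, adjusted p = 0.0542 to 0.0775). For Sall3 in E1-KO, E1-KO replicate 1 or WT replicate 1 decided the call.

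Genes of NuRD and of the AKT pathway, known from other work to act with Sall4 and Tcl1, were counted too. Whether their changes are linked to those of the members was not tested. Of 12 tested subunits of NuRD, the corepressor that Sall4 recruits, 3 rose and 3 fell in E1-KO, 3 rose and 1 fell in E2-KO, and 4 rose and 1 fell in E3-KO, where 15.0%, 14.2% and 13.9% of all tested genes rose and 23.0%, 22.0% and 30.8% fell. Mta1 fell in all 3 (-0.57, -0.78 and -0.85), and Chd4 (0.81, 0.87 and 0.74) and Mta2 (0.75, 0.52 and 0.64) rose in all 3. Of 18 AKT kinases and regulators, the pathway of Tcl1, 1 rose and 5 fell in E1-KO, 1 rose and 6 fell in E2-KO, and 1 rose and 4 fell in E3-KO, beside the same shares of all tested genes. The gene that rose each time was Eras, a Ras-like activator of PI3K in stem cells, at 2.221 and 2.024 FPKM in WT, 10.8 and 9.84 in E1-KO, 15.52 and 9.413 in E2-KO, with 5.61 and 4.992 in E3-KO. Pik3ca, a catalytic subunit of PI3K, fell in all 3 (-0.52, -0.67 and -0.70), and so did Akt1 (-0.44, -0.37 and -0.92). Eras and Tcl1, both upstream of AKT activity, moved in opposite directions in every knockout. The Chd4 and Mta2 calls were each lost without 1 or more single libraries, among them WT replicate 1 in every knockout. In E2-KO the Mta2 call was also lost in 4 other alternatives (limma-trend, adjusted p = 0.0517 to 0.0906). The Pik3ca call in E1-KO was lost without E1-KO replicate 1 or either WT replicate. The Akt1 call was lost in E1-KO without E1-KO replicate 2 or WT replicate 2, and in E2-KO without E2-KO replicate 1 or either WT replicate. In E2-KO the Akt1 call was also lost under median-ratio scaling and quantile normalization (limma-trend, adjusted p = 0.0596 to 0.0885).

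Of 5 tested partners and repressed genes of Prdm14, 3 rose and 1 fell in E1-KO. In each of E2-KO and E3-KO, 4 rose and 1 fell. Over all tested genes, 15.0%, 14.2% and 13.9% rose and 23.0%, 22.0% and 30.8% fell in E1-KO, E2-KO and E3-KO. The list medians were 1.08, 0.96 and 1.03, beside -0.062, -0.076 and -0.151 for all tested genes. The list is small, holds Dnmt3a, Dnmt3b and Dnmt3l, and was chosen with earlier results of these data known. Whether these changes are linked to that of Prdm14 was not tested. Dnmt3l, the cofactor of de novo DNA methylation, was at 8.378 and 8.686 FPKM in WT, 54.94 and 45.57 in E1-KO, 67.27 and 39.49 in E2-KO, with 48.53 and 40.09 in E3-KO. Every knockout sample was far above WT, and the log2 fold changes were 2.42, 2.46 and 2.24 (adjusted p = 0.00017, 0.000167 and 0.000143). The methyltransferase genes Dnmt3b (1.08, 1.27 and 1.51) and Dnmt3a (1.44, 0.96 and 1.03) rose as well. The member of the list that fell each time was Cbfa2t2, the corepressor that Prdm14 binds (-0.44, -0.69 and -0.61). Fgfr1 passed by little in E2-KO (0.35, adjusted p = 0.0498), a call lost when any 1 library of the pair was left out and in 6 other alternatives. The E1-KO call of Cbfa2t2 was lost without E1-KO replicate 1 or either WT replicate (0.0884 to 0.175). Both genes were named after their values were seen. Of 10 tested formative and primed genes, which share Dnmt3a and Dnmt3b with that list, 4 rose and 1 fell in E1-KO, 4 rose and 2 fell in E2-KO, and 2 rose and 2 fell in E3-KO, beside the shares of all tested genes of 15.0%, 14.2% and 13.9% that rose and 23.0%, 22.0% and 30.8% that fell. Tcf15 and Etv4 rose in E1-KO (2.07 and 1.75) and in E2-KO (0.80 and 1.38), and neither passed in E3-KO (0.52 and -0.08). The E2-KO call of Tcf15 was lost without E2-KO replicate 1 or WT replicate 2. It was also lost with all genes above 0 and with the pair alone (limma-trend, adjusted p = 0.0567 to 0.0828). Otx2, a driver of exit from the naive state, fell in all 3 (-1.34, -1.77 and -1.35). Of the 69 calls on list genes named by the rule, 48 were kept in every alternative. The Dnmt3a call was lost in E2-KO without E2-KO replicate 1 or either WT replicate (lowest adjusted p = 0.0574) and in E3-KO without WT replicate 1 (0.0521).

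**Figure D4:**
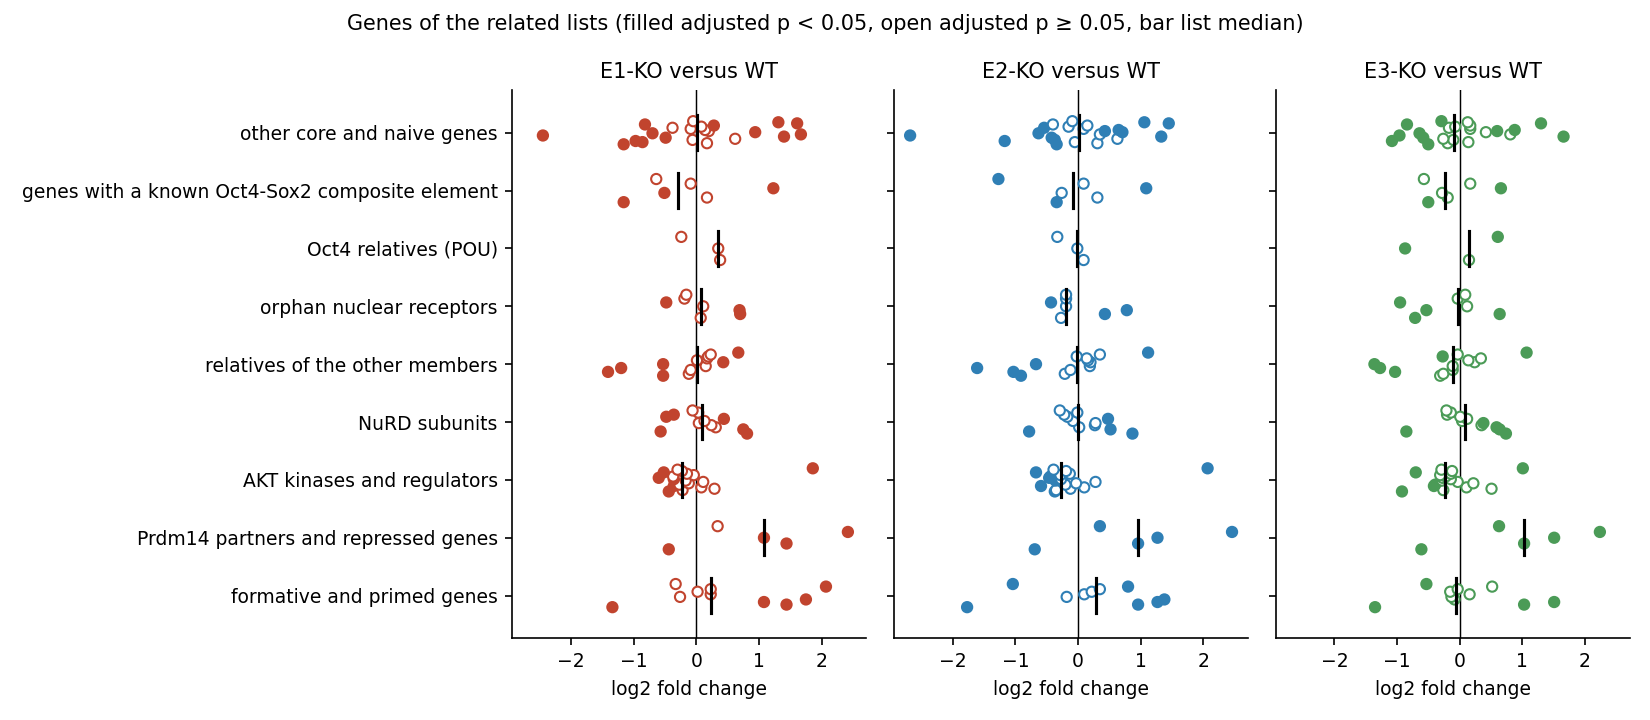
The log2 fold change of each tested gene of the 9 lists in each knockout against WT, with 1 point a gene, filled for an adjusted p under 0.05 and open otherwise, and a bar at the list's median. The Prdm14 list lies mostly to the right of 0, with medians of 1.08, 0.96 and 1.03, and the other lists hold points on both sides.

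Markers of other cell types moved with the groups, and their part in the results on the members was not tested. The summed level of 11 trophectoderm markers was 60.3 to 63.6 FPKM in WT, 41.0 to 48.0 in E1-KO, 39.4 to 45.7 in E2-KO and 63.3 to 83.2 in E3-KO. Tfap2c had the highest mean of them in WT, at 33.67 FPKM, and was at 16.26 in E1-KO. The others moved both ways in E1-KO, with Krt8 at 12.04 against 7.289 FPKM in WT and Krt18 at 5.796 against 9.824. In E3-KO, Krt8 (17.66 FPKM), Gata3 (6.85 against 1.522 in WT) and Ascl2 (2.762 against 0.5838) were called higher. The other tested trophectoderm markers, Tfap2c, Gata2, Eomes and Krt18, had lower means in E3-KO than in WT and were not called. The 6 primitive endoderm markers found summed to 3.56 to 3.58 FPKM in WT, 1.38 to 1.52 in E1-KO, 1.87 to 2.28 in E2-KO and 4.01 to 6.38 in E3-KO, with 1 marker at 0 in E3-KO. Of these 6, 4 had a mean below 1 FPKM in WT and in E3-KO, and all 6 did in E1-KO and E2-KO. Gata6 was called higher in E3-KO (2.74 against 1.095 FPKM in WT), and Hnf4a was lower there and not called. The 8 fibroblast markers summed to 361.7 to 384.2 FPKM in WT and 144.7 to 232.6 in the knockouts, nearly all of it Fn1, and 7 of the 8 had a mean below 1 FPKM in WT. The 6 markers found of two-cell-like cells summed to 1.33 to 1.66 FPKM in WT, 1.59 to 2.43 in E1-KO, 2.04 to 3.53 in E2-KO and 3.99 to 4.97 in E3-KO. All 6 had a mean below 1 FPKM in WT, E1-KO and E2-KO, and 5 did in E3-KO, so these sums rest on very low values. In these bulk samples, fewer cells that express a gene and less RNA of it per cell cannot be told apart.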

How the data were processed

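Per the submitters' processing notes, the tools were Trimmomatic 0.36, TopHat2 2.0.12 and Cufflinks 2.2.1 with build mm9, with no role or order given. The annotation, the use of strand and any normalization between samples are not given in the sources used here. The authors deposited 1 value per gene identifier and sample. No header names the unit, and the deposited values were taken as FPKM from the values and the tools. Absolute depth is therefore unknown and no counting interval is given. The relative depth came from ratios of low values.

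Each table had 18774 rows. Of 660 repeated identifiers (1622 rows, no member among them), 579 were kept at their own place in the row order and 81 left out, which gave 17731. Symbols came from a gene name table (17262 matched). Positions and promoters are on GRCm38 and were not mixed with the files' build. Overlapping annotated genes exist for Pou5f1, Sall4, Tfcp2l1 and Tbx3, none of them listed in the files. RefSeq promoters were found for 7 members, and Sall4, Prdm14 and Tbx3 are named only.

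The 11271 genes whose mean reached 1 FPKM were tested on log2(FPKM + 1) with limma-trend (limma 3.58.1 in R 4.3.3), with the group as the only term, all 8 samples in the same fit and 4 residual degrees of freedom. P-values were 2-sided and Benjamini-Hochberg adjusted over all tested genes, with calls at under 0.05. Tables and figures were made with Python 3.11.15 (pandas 2.3.3, matplotlib 3.10.9). The scripts were tested on simulated data. From each list and knockout, up to 3 called genes with the largest change were named. Values of a named gene in its other knockouts, and Cbfa2t2 and Fgfr1, were added after seeing the data. Likeness was the Euclidean distance between the 3 log2 fold changes against WT, given for Pou5f1 and for the member that changed most. The members and lists were chosen with earlier results of these data known. Alternatives were a pseudocount of 0.1, every gene above 0, a minimum mean of 5 FPKM, 3 other scalings, a replicate block, no trend, an adjusted p under 0.01, the samples of the pair alone, summed rows for repeated identifiers, and each replicate left out. The list counts and the ratio alternatives were added after seeing the data.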

Additional observations from a re-analysis of the deposited data

Results flagged for a closer look

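Of the 10 members, 4 passed the test of the difference between knockouts in the same limma-trend fit, at counts near the shares of all tested genes. Against E1-KO, E3-KO had higher Tbx3 (log2 difference 0.52), higher Tfcp2l1 (0.42) and higher Sall4 (0.33), which is 3 of 10 members where 25.8% of all tested genes passed. Against E2-KO, E3-KO had lower Esrrb (log2 difference -0.39), which is 1 of 10 where 15.6% passed. The calls of Tbx3, Tfcp2l1 and Sall4 were lost without E1-KO replicate 1, and those of Tfcp2l1 and Sall4 also without other libraries of the pair. The Sall4 call was lost with the replicate block, without a trend and with the pair alone as well. The Esrrb call was lost when any 1 library of its pair was left out and in 7 other alternatives.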

How the results depend on the processing

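Over 14 alternatives for each member and comparison, no log2 fold change of a called member reversed, and 13 of the 21 member calls against WT were kept in every one. At an adjusted p under 0.01 the genes called were 2247, 2089 and 3056 against WT for E1-KO, E2-KO and E3-KO, 0 for E2-KO against E1-KO (limma-trend, 2092 at an unadjusted p under 0.05), 1412 for E3-KO against E1-KO and 575 for E3-KO against E2-KO. Genes called between E2-KO and E1-KO, 94 in all, came to 1 with all genes above 0, 58 at a minimum mean of 5 FPKM and 1 with the samples of the pair alone. Between E3-KO and E2-KO the pair alone called 672 genes. The single member called there came to 0 with all genes above 0, under median-ratio scaling, quantile normalization and scaling that omits the 50 highest genes, without a trend and with the pair alone. The cause was not tested. Leaving out each replicate gave 2040 to 2579 genes and 5 to 6 members in E1-KO, 1870 to 3714 and 3 to 7 in E2-KO, and 2828 to 4559 and 5 to 7 in E3-KO. Between knockouts it gave 2 to 58 genes and 0 members for E2-KO against E1-KO, 1309 to 2610 and 0 to 2 for E3-KO against E1-KO, and 974 to 1550 and 0 to 2 for E3-KO against E2-KO. Where a group kept 1 sample, it was assumed to vary like the others. Replicate numbers did not pair the samples (mean correlation of deviations 0.0047, from -0.0426 to 0.0892 over 6 group pairs). The replicate block gave 31 genes for E2-KO against E1-KO and 0 members for E3-KO against E2-KO. The Pou5f1 to Sox2 ratio under quantile normalization was 3.02 (WT), 7.57 (E1-KO), 4.39 (E2-KO) and 4.66 (E3-KO).

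With 2 samples a group, changes near 0.3 on the log2 scale sat at the edge of what passed.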

Other observations

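Tcl1b2, a relative of Tcl1 in the same gene cluster, was below the filter on low values and so in none of the counts. Tcl1b2 was at 0.9499 and 1.10 FPKM in WT, at 0 and 0.2304 in E1-KO and at 0.08068 and 0.08965 in E2-KO, and it was listed at 0 in both E3-KO samples. With all genes above 0 tested by limma-trend, its log2 fold change was -0.87 in E1-KO (SE 0.0982, adjusted p = 0.00291), -0.90 in E2-KO (adjusted p = 0.00299) and -1.02 in E3-KO (adjusted p = 0.00137). These values lie near or below the 1 FPKM added before the log, so the pseudocount largely sets the size of these changes. Tcl1b2 was looked at after its values were seen, so its p-values are not those of a gene chosen in advance.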
